A study of Mus musculus with 8 samples.

Results

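The mu class glutathione transferases of the mouse are encoded by 7 genes, Gstm1 to Gstm7, and all 7 were found by gene name among the 28073 genes of a liver count table. The livers came from mice of the inbred strain C57BL/6 that were 21 to 22 weeks old. A high-fat diet was fed to 4 mice and a low-fat control diet to the other 4, and each mouse gave 1 library of total RNA. The labels name no transgene, drug or other treatment in either group, and they do not give the feeding time, the composition of the diets or the sex of the mice. The question of the series is what such a diet does to hepatic nuclear receptors and the genes under their control.

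Glutathione transferases join the tripeptide glutathione to reactive electrophiles, such as drug metabolites and the aldehydes left by lipid peroxidation, and the conjugates are then exported and processed to mercapturates. The mu class is one of the main cytosolic classes of the liver, and its enzymes work as dimers of mu class subunits. In mouse liver several of the genes are inducible, and known regulators include NRF2, the sensor pathway for electrophiles, and CAR, a nuclear receptor for foreign compounds. Human GSTM1 is known for a common whole-gene deletion, and human genes of the same number are not always the direct counterparts of the mouse genes.

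On the high-fat diet the 7 genes did not move as a block: Gstm1, Gstm3 and Gstm4 were higher, Gstm6 and Gstm7 were lower, and Gstm2 and Gstm5 did not pass the test. The largest difference was that of Gstm3, 4.03-fold in the fit of all libraries, and Gstm1, by far the most abundant member, was 1.89-fold higher. Both of these differences were carried unevenly by the 4 high-fat livers, whereas those of Gstm4, Gstm6 and Gstm7 were smaller and more even. All 7 members passed the filter on low counts, with 163 to 47271 counts per library, and 5 of the 7 were called by the quasi-likelihood test of edgeR (Benjamini-Hochberg adjusted p under 0.05). Among the 14088 genes tested, 9.61% were called, 3.75% as higher and 5.86% as lower. The members, and the gene lists below, were chosen with earlier results of these data known. Their called shares are therefore not a neutral comparison with all genes. The median log2 fold change of the members was 0.44, beside 0.0069 over all genes tested. This median is the value of Gstm2, which did not pass the test, and members lay on both sides of 0.

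The members are close relatives in sequence, so the starts of their coding regions are shown here, both to set the genes apart and to show how alike the counted transcripts are. The first 60 coding bases are given from GENCODE M21 transcripts (mm10, chromosome 3), and capitals mark the bases that differ from Gstm1.
Gstm1: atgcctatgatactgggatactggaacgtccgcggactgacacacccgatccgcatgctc
Gstm3: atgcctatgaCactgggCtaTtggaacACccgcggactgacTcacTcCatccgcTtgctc
Gstm2: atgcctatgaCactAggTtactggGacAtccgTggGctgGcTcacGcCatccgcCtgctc
Gstm4: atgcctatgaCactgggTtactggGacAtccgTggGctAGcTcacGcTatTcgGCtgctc
Gstm6: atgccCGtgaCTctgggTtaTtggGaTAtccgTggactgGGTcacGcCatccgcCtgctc
Gstm7: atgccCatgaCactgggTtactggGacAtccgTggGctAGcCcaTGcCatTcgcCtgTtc
In this stretch Gstm3 differs from Gstm1 at 9 bases, Gstm2 at 12, Gstm4 at 14, and Gstm6 and Gstm7 at 16 each. Gstm5 starts with a longer 5′ coding end than the others and is not aligned here; its coding region has 675 bases, against 657 in each of the other 6 genes. Over the whole coding region, identity was highest between Gstm1 and Gstm3, at 89.5%, and lowest between Gstm3 and Gstm5, at 69.7%.

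How much of this likeness could split reads depends on the read length, which is not given in the sources used here. Of the 50-base subsequences in the Gstm3 transcripts, 28.8% also occur in transcripts of another gene, and 13.8% of the 100-base ones do. For Gstm1 the shares were 18.9% and 5.86%, for Gstm2 5.66% and 0.357%, and for Gstm6 5.97% and 1.10%. Gstm4 shared none at either length and Gstm7 shared 0.532% and none, so their counts rest almost wholly on sequence of their own. Gstm3 shared 124 of its 50-base subsequences with Gstm1 and 76 with Gstm6. It shared others with the pseudogene Gstm2-ps1, which had 0 to 5 counts per library, and with the gene model Gm8834. No gene named Gm8834 was found in the count table. Gstm5 shared 9.44% at 50 bases, all of it with 4933431E20Rik, a gene on the opposite strand that overlaps it by 393 bases. The counting rule for reads that fit more than 1 gene is not given in the sources used here, so values of Gstm1, Gstm2, Gstm3, Gstm5 and Gstm6 carry this uncertainty.

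Gstm1 is the major mu class gene of mouse liver, and its protein also binds the stress kinase ASK1. It lies on the minus strand of chromosome 3 at 108012255 to 108017973 (mm10, ENSMUSG00000058135.12). Its level was 811, 689, 1599.5 and 1022 CPM (reads of the gene relative to the size of the library, with sizes scaled by TMM) in high-fat replicates 1 to 4, against 459, 478, 545 and 698 CPM in control replicates 1 to 4. High-fat replicate 3 stood above all others, and high-fat replicate 2 lay just below the highest control, so the groups overlapped. The means were 1031 ± 404 CPM in high-fat livers and 545 ± 109 CPM in control livers (SD, n = 4 each), a log2 fold change of 0.92 ± 0.25 (SE; 95% interval 0.36 to 1.48) with an edgeR adjusted p = 0.0491. Without high-fat replicate 3 the log2 fold change was 0.63 and the edgeR adjusted p = 0.0844. The call was also lost without high-fat replicate 1 or 4 (edgeR adjusted p = 0.0572 and 0.0959) and without control replicate 1, 2 or 3 (edgeR adjusted p = 0.115, 0.119 and 0.0827), and held only without high-fat replicate 2 or control replicate 4.

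Gstm3 is one of the mouse mu class genes known to be inducible through NRF2. It lies on the minus strand at 107963696 to 107969283 (ENSMUSG00000004038.9). It had 39.6, 31.0, 173 and 68.3 CPM in high-fat replicates 1 to 4, against 17.7, 23.8, 12.8 and 23.3 CPM in control replicates 1 to 4. Every high-fat library was above every control library, and the high-fat libraries themselves lay far apart, with replicate 3 the highest. Gstm3 averaged 78.0 ± 65.3 CPM in high-fat livers and 19.4 ± 5.20 CPM in control livers (SD, n = 4 each), a log2 fold change of 2.01 ± 0.50 (SE; 95% interval 0.88 to 3.14) with an edgeR adjusted p = 0.0362. Without high-fat replicate 3 the log2 fold change was 1.26 and Gstm3 was still called (edgeR adjusted p = 0.0454). It was not called without high-fat replicate 4 or without any one of control replicates 1 to 4 (edgeR adjusted p = 0.0594 to 0.0833).

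Gstm4 was the member whose higher level was most even. It lies on the minus strand at 108040408 to 108044894 (ENSMUSG00000027890.17). It had 40.6, 39.7, 54.3 and 45.9 CPM in high-fat replicates 1 to 4, against 29.3, 31.0, 29.2 and 28.8 CPM in control replicates 1 to 4. The groups did not overlap, and the control libraries were close to one another. The means were 45.1 ± 6.72 CPM in high-fat livers and 29.6 ± 1.0 CPM in control livers (SD, n = 4 each), and the log2 fold change was 0.61 ± 0.098 (SE; 95% interval 0.39 to 0.83; edgeR adjusted p = 0.00673). Gstm4 was called with each of the 8 libraries left out in turn, with log2 fold changes of 0.51 to 0.67.

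Gstm6, on the minus strand at 107938847 to 107943749 (ENSMUSG00000068762.11), was lower on the high-fat diet. It had 55.4, 53.0, 61.2 and 55.9 CPM in high-fat replicates 1 to 4, against 79.1, 86.0, 68.5 and 104 CPM in control replicates 1 to 4. All high-fat libraries were below all control libraries, and here the control group was the more variable one. Gstm6 averaged 56.4 ± 3.46 CPM in high-fat livers and 84.5 ± 15.0 CPM in control livers (SD, n = 4 each), a log2 fold change of -0.58 ± 0.12 (SE; 95% interval -0.84 to -0.32; edgeR adjusted p = 0.0150).

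Gstm7, its neighbour on the minus strand at 107926334 to 107931817 (ENSMUSG00000004035.12), was lower as well. It had 36.8, 40.0, 33.6 and 38.9 CPM in high-fat replicates 1 to 4, against 51.5, 51.2, 45.8 and 58.1 CPM in control replicates 1 to 4. The groups did not overlap. Gstm7 averaged 37.3 ± 2.81 CPM in high-fat livers and 51.6 ± 5.03 CPM in control livers (SD, n = 4 each), a log2 fold change of -0.47 ± 0.084 (SE; 95% interval -0.66 to -0.28; edgeR adjusted p = 0.0102). Gstm6 and Gstm7 were each called with every one of the 8 libraries left out in turn, with log2 fold changes of -0.67 to -0.47 for Gstm6 and -0.52 to -0.41 for Gstm7.

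Gstm2, on the minus strand at 107981702 to 107986453 (ENSMUSG00000040562.12), shares its number with a human gene known from muscle. It had 68.9, 77.6, 139 and 95.8 CPM in high-fat replicates 1 to 4, against 60.2, 77.0, 59.2 and 84.3 CPM in control replicates 1 to 4. The groups overlapped, and high-fat replicate 3 was again the highest library. The means were 95.3 ± 31.2 CPM in high-fat livers and 70.2 ± 12.5 CPM in control livers (SD, n = 4 each), and the log2 fold change of 0.44 ± 0.21 (SE) did not pass the test (edgeR adjusted p = 0.233). Its 95% interval, -0.033 to 0.92, holds 0 and reaches close to the log2 fold change of Gstm1. Without high-fat replicate 3 the log2 fold change was 0.20.

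Gstm5, on the plus strand at 107895821 to 107898686 (ENSMUSG00000004032.10), is the mouse counterpart of human GSTM3 and is known for expression in brain and testis. It was the least abundant member, with 7.09, 7.26, 6.77 and 8.61 CPM in high-fat replicates 1 to 4, against 9.39, 10.2, 9.26 and 5.96 CPM in control replicates 1 to 4. Control replicate 4 was the lowest of all libraries and the other 3 controls were the highest, so the groups overlapped. The means were 7.43 ± 0.810 CPM in high-fat livers and 8.71 ± 1.89 CPM in control livers (SD, n = 4 each), with a log2 fold change of -0.23 ± 0.17 (SE; 95% interval -0.60 to 0.14; edgeR adjusted p = 0.436). The overlapping antisense gene 4933431E20Rik had a mean count of 43.7% of that of Gstm5 and a log2 difference of 0.096 between the diets (edgeR adjusted p = 0.797).

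**Figure D1:**
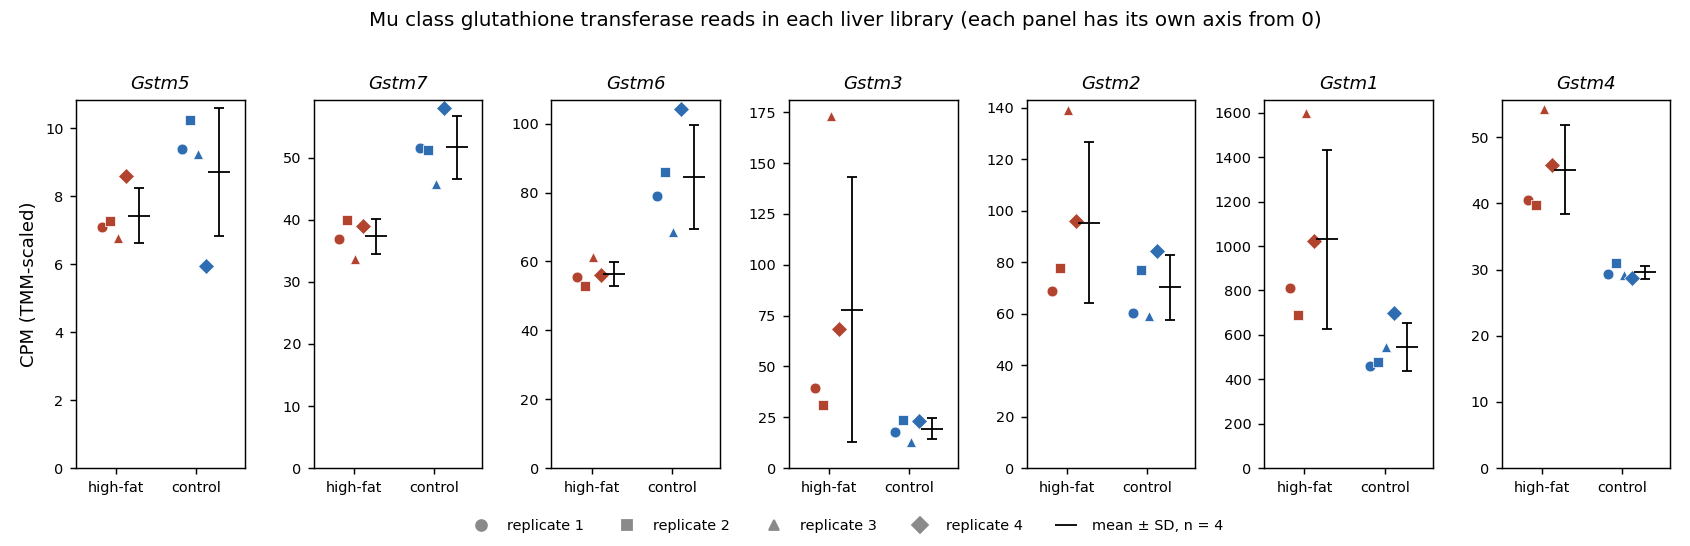
CPM of the 7 genes in each library, high-fat diet on the left in red and control diet on the right in blue, with marker shapes for replicates 1 to 4 and the mean ± SD (n = 4) beside the points; every panel has its own axis from 0. The groups are apart for Gstm3 and Gstm4, where high-fat livers are higher, and for Gstm6 and Gstm7, where they are lower, and high-fat replicate 3 is the highest library for Gstm1, Gstm2, Gstm3 and Gstm4.

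Groups that did not overlap were found for 4 of the 7 members, beside 17.3% of all genes tested. In 2 of the 4 the high-fat libraries were higher, beside 7.28% of all genes, and in 2 they were lower, beside 9.97%. High-fat replicate 3 was the highest of all 8 libraries for 4 of the 7 members, beside 17.7% of all genes tested. For Gstm6 it was the highest of the high-fat libraries, at 61.2 CPM, and for Gstm7 the lowest of all libraries, at 33.6 CPM. With each library left out in turn, 3 to 5 members were called, and the count was 3 with high-fat replicate 4, or control replicate 1, 2 or 3, left out. Gstm4, Gstm6 and Gstm7 were the members called in every one of these 8 fits. With limma-voom in place of edgeR neither Gstm1 (adjusted p = 0.0505) nor Gstm3 (adjusted p = 0.0680) passed.

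**Figure D2:**
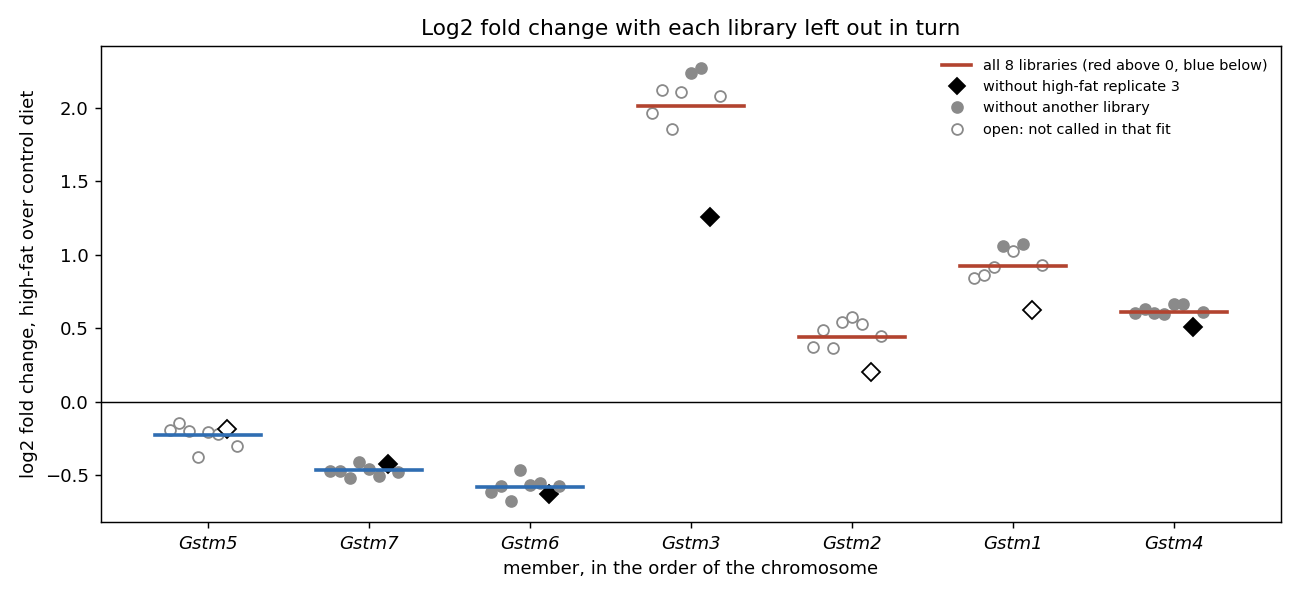
Log2 fold change of high-fat over control diet for each gene, in their order on the chromosome, with all 8 libraries (horizontal lines) and with each library left out in turn (points; open points were not called by edgeR). The points of Gstm4, Gstm6 and Gstm7 are all filled and near their lines, while without high-fat replicate 3 (diamonds) Gstm3 drops to 1.26 and Gstm1 to 0.63.

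Levels of different genes were compared as CPM per kilobase (kb) of merged exons. On this scale Gstm1 held 699.6 ± 274 in high-fat livers and 369.8 ± 73.7 in control livers (SD, n = 4 each), far above every other member in both diets. In high-fat livers Gstm3 (59.5 ± 49.8) and Gstm2 (56.8 ± 18.6) came next, and their means could not be ordered within their spread. Gstm2 was above Gstm3 in every high-fat library but replicate 3, also with the longest transcript as the length. Gstm6 (28.3 ± 1.74), Gstm4 (26.4 ± 3.94) and Gstm7 (23.3 ± 1.75) followed, close together with merged exons as the length. This closeness depended on the length assigned to each gene. With the longest transcript, Gstm6 made up 4.88% of the summed level of the members in high-fat livers. Gstm7 made up 2.85% and Gstm4 2.64%, and both were below Gstm6 in every high-fat library. In control livers Gstm6 (42.5 ± 7.56) and Gstm2 (41.8 ± 7.42) came after Gstm1 on the scale of merged exons. They did not differ beyond their spread on this scale, but with the longest transcript Gstm6 was above Gstm2 in every control library. With merged exons, Gstm7 (32.3 ± 3.14) was below both on average, and Gstm4 (17.3 ± 0.587) and Gstm3 (14.8 ± 3.96) were lower again and within each other's spread. Gstm5 was last in both, at 5.82 ± 0.634 in high-fat livers and 6.82 ± 1.48 in control livers.

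Summed over the 7 genes, the level was 702, 618, 1389 and 889 CPM per kb in high-fat replicates 1 to 4, against 457, 489.8, 502 and 652 CPM per kb in control replicates 1 to 4. High-fat replicate 2 was below control replicate 4, so the summed level overlapped between the diets. The shares of Gstm1, Gstm3, Gstm6 and Gstm7 in the sum did not overlap between the diets. Gstm1 made up 77.6% ± 1.28 of it in high-fat livers, with a range of 75.7% to 78.4%, and 70.2% ± 3.56 in control livers, with a range of 66.2% to 73.6%. Gstm3 made up 5.87% ± 2.57 in high-fat livers and 2.83% ± 0.725 in control livers. Gstm6 made up 3.41% ± 0.932 in high-fat livers and 8.11% ± 0.899 in control livers, and Gstm7 2.89% ± 1.06 in high-fat livers and 6.21% ± 0.701 in control livers. The shares of Gstm6 and Gstm7 were thus lower in each high-fat library than in any control library. Because Gstm1 is most of the sum, a higher Gstm1 lowers the shares of the other members. Gstm4, whose level was higher, made up 3.12% in high-fat livers and 3.37% in control livers. Gstm2, also higher on average, made up 6.42% in high-fat livers and 7.98% in control livers. The shares therefore add no separate evidence for Gstm6 and Gstm7. Shares depend on the length assigned to each gene: with the longest transcript in place of merged exons, Gstm1 made up 75.3% in high-fat livers and 66.0% in control livers, and Gstm6 4.88% in high-fat livers and 11.3% in control livers.

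**Figure D3:**
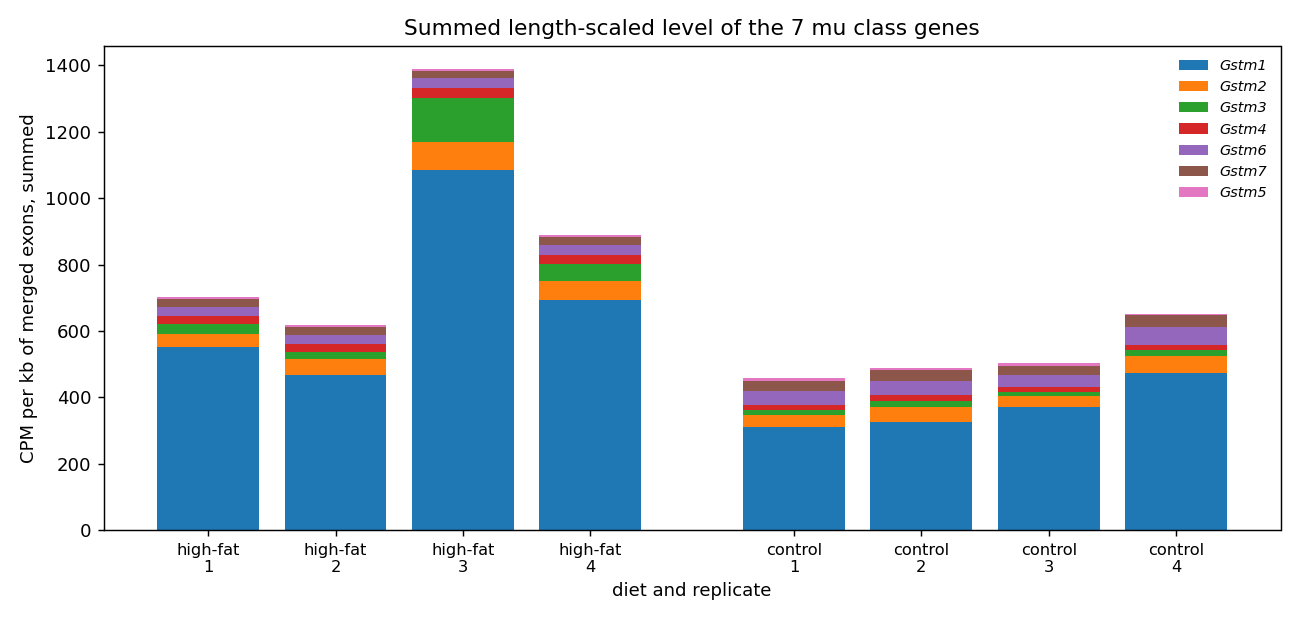
Summed level of the 7 mu class genes in CPM per kb of merged exons, 1 stacked bar per library, the 4 high-fat livers on the left and the 4 control livers on the right, coloured by gene. Gstm1 fills most of every bar, high-fat replicate 3 has the tallest at 1389, and the Gstm6 and Gstm7 segments are thinner in the high-fat bars.

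Ratios of 2 members within a library do not depend on how the libraries are scaled. The log2 ratio of Gstm4 to Gstm6 CPM was -0.45, -0.42, -0.17 and -0.29 in high-fat replicates 1 to 4, against -1.43, -1.47, -1.23 and -1.86 in control replicates 1 to 4. Gstm4 was thus closer to Gstm6 in every high-fat library than in any control library, with a difference of the means of 1.17. The log2 ratio of Gstm3 to Gstm6 averaged 0.13 ± 1.01 in high-fat livers and -2.15 ± 0.23 in control livers (SD, n = 4 each), without overlap. That of Gstm3 to Gstm1 averaged -3.99 ± 0.57 in high-fat livers and -4.84 ± 0.45 in control livers and overlapped. These ratios combine members already described and add no separate evidence for them.

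Along chromosome 3 the members lie within 149.1 kb in the order Gstm5, Gstm7, Gstm6, Gstm3, Gstm2, Gstm1 and Gstm4, with Gstm5 alone on the plus strand. In this order the members that were lower, Gstm7 and Gstm6, are adjacent, and the 3 that were higher lie beyond them with Gstm2 in between. The table holds 22 other genes within 200 kb of the outermost members, and 10 of them had enough counts to be tested. None of the 10 was called by edgeR, by DESeq2 or by limma-voom, and 0 of them had an unadjusted edgeR p under 0.05. As edgeR called 9.61% of all genes tested, 0 of 10 is near that share and sets no border to the difference. Beside Gstm4, Ampd2, which encodes an AMP deaminase, showed a log2 difference of 0.096 (edgeR adjusted p = 0.597), and Gnai3, which encodes an inhibitory G protein subunit, showed one of -0.10 (edgeR adjusted p = 0.401).

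**Figure D4:**
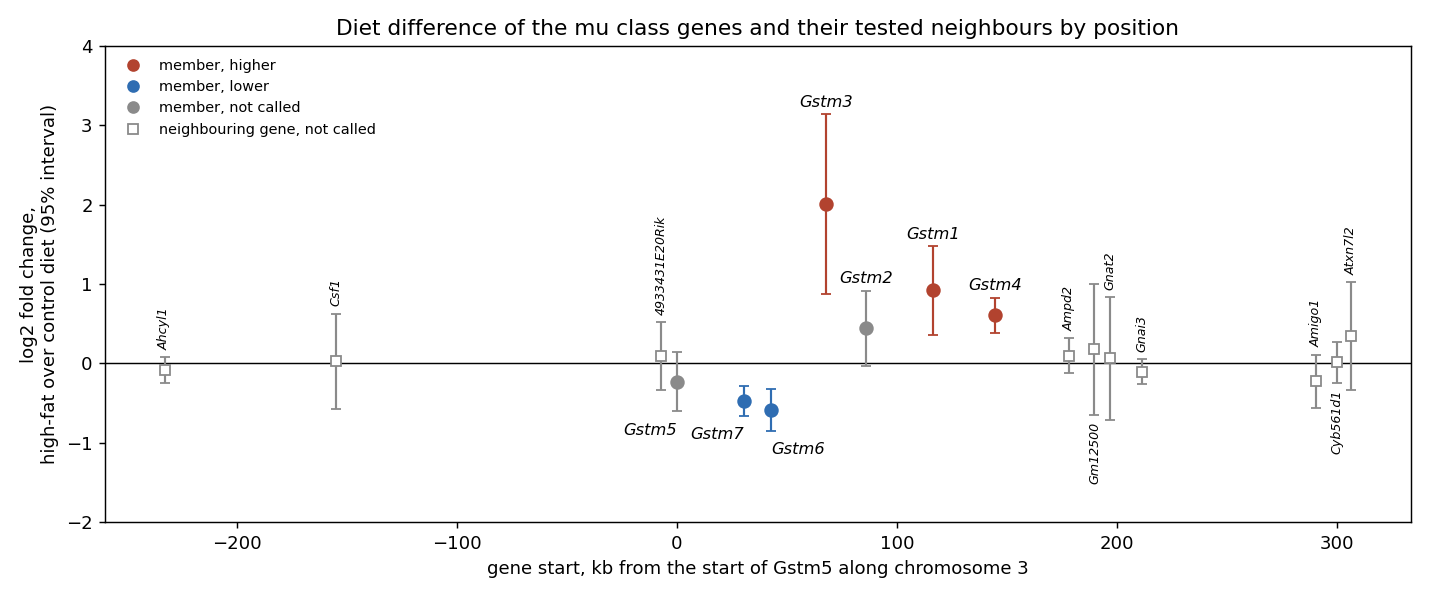
Log2 fold change of high-fat over control diet with its 95% interval against the distance of each gene's start from that of Gstm5 on chromosome 3, for the 7 mu class genes (filled circles) and the 10 tested genes within 200 kb (open squares). The lower members Gstm7 and Gstm6 lie next to each other, the higher ones lie beyond them with Gstm2, which was not called, in between, and the intervals of all neighbouring genes include 0.

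The 30 bases before the RefSeq start site nearest upstream of the start codon (GRCm38.p6, chromosome 3, minus strand) are shown for the 5 called members, to set the start regions of the higher and the lower ones side by side. Capitals mark the TATA box letters TATAAA.
Gstm1, chr3:108017819-108017848: TATAAAgtcacaactccaaacacacaggtc
Gstm3, chr3:107969175-107969204: ctccttaaaattctccagctcaacctacct
Gstm4, chr3:108044857-108044886: ctttccggtctgttgggggcggagctcagt
Gstm6, chr3:107943735-107943764: gttccacggttggttcctttggggaggggc
Gstm7, chr3:107931818-107931847: acaatggagctcaggcagccttggctctgg
Of these stretches, that of Gstm1 alone holds TATAAA, 30 to 25 bases before its start site. Motifs were searched on both strands in the RefSeq windows of 250 bases before to 50 bases after each start. TGACNNNGC, the core of the antioxidant response element bound by NRF2, occurs in 12.4% of all 32544 windows, TGACTCA, the AP-1 site, in 5.19%, GCGTG, the core of the element bound by the aryl hydrocarbon receptor, in 32.6%, and TATAAA in 13.6%. The windows of Gstm2, Gstm3, Gstm4 and Gstm6 hold none of these letters. The Gstm1 windows hold GCGTG besides TATAAA. The Gstm7 windows hold TATAAA, 231 to 226 bases before the start, and TGACNNNGC, the last in a window whose start site lies past the start codon. The Gstm5 window holds all 4 motifs, among them TGACNNNGC, 42 to 34 bases before the start, in the stretch chr3:107895791-107895820 on the plus strand, ctgcgcctgcgcaccgcccacTGACCACGC, with the match in capitals. Both GCGTG matches of that window lie on the opposite strand, and they overlap its TGACNNNGC match and its TGACTCA match. The TATAAA of that window lies 40 to 45 bases after the start site, so it is not placed before the start as that of Gstm1 is. A match in these letters is a description of the sequence, and elements outside these windows were not searched.

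For each member the tested protein-coding genes most alike in their pattern were found as the smallest root mean square difference in log2 CPM over the 8 libraries, each gene centred on its own mean. For Gstm1 these were Srxn1, which encodes the NRF2 target sulfiredoxin (0.17), Gsta4, an alpha class transferase that conjugates 4-hydroxynonenal (0.18), and Fabp4, a fatty acid binding protein (0.20), where Gstm1 itself varied by 0.56 about its mean. For Gstm3, which varied by 1.12, the nearest were Itgax (0.40), Selp (0.43) and Col1a1 (0.43), which encode an integrin of leukocytes, P-selectin and a collagen chain. For Gstm4 they were Crim1 (0.095), Igsf11 (0.099) and Nap1l1 (0.099). For Gstm6 they were Tmx4 (0.090), the bile acid synthesis enzyme Akr1d1 (0.12) and the cytochrome P450 Cyp2c67 (0.12). For Gstm7 they were Urah, Nrn1 and Tmem256, at 0.050 each. Srxn1 had 69.8, 68.0, 121 and 77.3 CPM in high-fat replicates 1 to 4, against 45.2, 43.0, 49.9 and 49.7 CPM in control replicates 1 to 4, and was higher (log2 fold change 0.84 ± 0.17, edgeR adjusted p = 0.0168). Srxn1 was highest in high-fat replicate 3, as Gstm1 was, but it was picked among 12442 genes for its likeness to Gstm1 in these libraries. Its pattern and its call therefore add no separate evidence about Gstm1.

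Of 21 other listed glutathione transferases, the alpha, pi, theta and further cytosolic and microsomal forms, 16 were tested, 1 was higher and 1 lower, with a median log2 fold change of 0.075. These calls make up 12.5% of the list, near the 9.61% called over all genes tested. The count was 0 without high-fat replicate 3 or 4, and likewise without control replicate 1 or 2, it was 1 without high-fat replicate 2, and it was 6, 5 of them higher, without control replicate 4. Gsta1, an inducible alpha class form, had 7.37, 4.68, 38.2 and 13.7 CPM in high-fat replicates 1 to 4, against 0.737, 0.407, 1.78 and 3.33 CPM in control replicates 1 to 4. Its groups did not overlap and replicate 3 was the highest high-fat library, as for Gstm3 (log2 fold change 3.34 ± 0.76, edgeR adjusted p = 0.0253). Gstp1, the pi class form, averaged 174 ± 31.3 CPM in high-fat livers and 377 ± 126 CPM in control livers (SD, n = 4 each; log2 fold change -1.12 ± 0.25, edgeR adjusted p = 0.0218), and its reads can be shared with the near-identical Gstp2. Neither call held with every library left out: that of Gsta1 was lost with high-fat replicate 3 or 4, or control replicate 1 or 2, left out (edgeR adjusted p = 0.0528 to 0.0669), and Gstp1 with high-fat replicate 2, 3 or 4, or control replicate 1 or 2, left out (edgeR adjusted p = 0.0534 to 0.0671). The abundant alpha form Gsta3 (log2 fold change -0.26, edgeR adjusted p = 0.141) and the theta form Gstt1 (-0.014, edgeR adjusted p = 0.934) did not pass.

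Among 15 tested genes of glutathione synthesis and recycling, 1 was higher and 1 lower, with a median log2 fold change of 0.085. The called share was 13.3%, near the 9.61% over all genes tested, and the count was 1 without any one high-fat library or without control replicate 2. Gss, glutathione synthetase, averaged 81.8 ± 6.44 CPM in high-fat livers and 40.2 ± 11.7 CPM in control livers (SD, n = 4 each), a log2 fold change of 1.02 ± 0.18 by edgeR (adjusted p = 0.00928) that was called with each library left out in turn. Gclc, the catalytic subunit of the rate-limiting ligase, did not pass (0.089, edgeR adjusted p = 0.752). G6pdx, glucose-6-phosphate dehydrogenase, a source of the NADPH that reduces glutathione, was lower (-1.56 ± 0.34, edgeR adjusted p = 0.0206), but not called without control replicate 2 or without any one high-fat library (edgeR adjusted p = 0.0513 to 0.0645).

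Of 19 tested genes that export conjugates or process them to mercapturates, 1 was higher and 3 were lower, 21.1% of the list beside 9.61% of all genes tested, with a median log2 fold change of -0.091. The count was 2 without high-fat replicate 4. Abcc3, the basolateral transporter MRP3, was higher (1.49 ± 0.34, edgeR adjusted p = 0.0241), though not once high-fat replicate 2, 3 or 4, or control replicate 2, was left out (edgeR adjusted p = 0.0511 to 0.0671). Nat8, the N-acetyltransferase of cysteine conjugates, averaged 8.38 ± 1.26 CPM in high-fat livers and 16.5 ± 3.78 CPM in control livers (SD, n = 4 each; -0.98 ± 0.18, edgeR adjusted p = 0.0114). Its relative Nat8f1 (-0.82 ± 0.17, edgeR adjusted p = 0.0164) and Ccbl1, a beta-lyase of cysteine conjugates (-0.87 ± 0.18, edgeR adjusted p = 0.0160), were lower too. The relatives Nat8f5 (-0.57, edgeR adjusted p = 0.0880) and Nat8f2 (0.13, edgeR adjusted p = 0.740) did not pass. Nat8f2 was far more abundant than Nat8, at a mean of 789 CPM in high-fat and 723 CPM in control livers. Nat8f1 was not called without high-fat replicate 4 (edgeR adjusted p = 0.0510), while Nat8 and Ccbl1 were called with each library left out. Over these 3 lists, 8 of 50 tested genes were called, to be read against the 9.61% called over all genes. With 1 library left out the count was 3 without high-fat replicate 4, 4 without high-fat replicate 3 or control replicate 2, 5 without high-fat replicate 2 and 14 without control replicate 4.

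Of 13 tested receptors and sensors that respond to inducers, 4 were higher and none lower by edgeR, 30.8% of the list beside 9.61% of all genes tested, with a median log2 fold change of 0.33. At an unadjusted edgeR p under 0.05, 1 gene of the list was lower, and DESeq2 called 1 as lower, Arnt, the partner of the aryl hydrocarbon receptor, while limma-voom called none as lower. Nfe2l2, which encodes NRF2, averaged 91.1 ± 6.56 CPM in high-fat livers and 66.7 ± 9.30 CPM in control livers (SD, n = 4 each; 0.45 ± 0.10, edgeR adjusted p = 0.0240), and was not called without high-fat replicate 3 or 4 or control replicate 2 (edgeR adjusted p = 0.0664 to 0.0711). Nr1i3, which encodes CAR (0.87 ± 0.16, edgeR adjusted p = 0.0122), and Ahr, the aryl hydrocarbon receptor (0.54 ± 0.097, edgeR adjusted p = 0.0104), were called with each library left out. Ppara, the fatty acid receptor, was called with all libraries (0.47 ± 0.13, edgeR adjusted p = 0.0472), but of the fits that leave out 1 library only in that without control replicate 3, and reached an edgeR adjusted p of up to 0.118 in the others. Keap1, the inhibitor of NRF2 (-0.068, edgeR adjusted p = 0.460), and Nr1i2, which encodes the receptor PXR (0.33, edgeR adjusted p = 0.139), did not pass. Without high-fat replicate 3 or control replicate 2 the count of called receptors and sensors was 2.

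Of 15 tested marker targets of these factors, 6 were higher and 1 lower, 46.7% of the list beside 9.61% of all genes tested, with a median log2 fold change of 0.84, and 11 of the 15 were highest in high-fat replicate 3. Por, the reductase of microsomal P450 enzymes (1.37 ± 0.22, edgeR adjusted p = 0.00672), Ephx1, microsomal epoxide hydrolase (1.24 ± 0.22, edgeR adjusted p = 0.0103), and Srxn1, described above, were higher. Cyp2b10, the classic CAR target, was at 19 to 56 counts per high-fat library and 0 to 3 counts per control library (edgeR adjusted p = 0.00472). Nqo1, a classic NRF2 target, averaged 10.8 ± 3.58 CPM in high-fat livers and 5.01 ± 2.47 CPM in control livers and did not pass (1.11 ± 0.33, edgeR adjusted p = 0.0645), although without control replicate 4 it did (1.5, edgeR adjusted p = 0.0108). Also not called were Hmox1 (0.083, edgeR adjusted p = 0.801), Txnrd1 (0.053, edgeR adjusted p = 0.709), Cyp4a10 (1.11, edgeR adjusted p = 0.364) and Cyp4a14 (2.12, edgeR adjusted p = 0.285). Control replicate 3 stood apart for both Cyp4a genes. Cyp4a10 had 224 CPM there, 15.4 to 76.3 CPM in the other controls and 167 to 201 CPM in high-fat libraries. Cyp4a14 had 90.5 CPM there, 0.703 to 6.36 CPM in the other controls and 65.7 to 142 CPM in high-fat libraries. Their non-calls thus do not show them unchanged. Cyp1a2, a target of the aryl hydrocarbon receptor, was lower (-1.03 ± 0.20, edgeR adjusted p = 0.0127). Like the other lists, this one was chosen with earlier results of these data known, so its called share is not a neutral comparison with all genes. Without control replicate 2 the count of called targets was 4 in place of 7.

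Total counts were 26846453 to 28312523 per high-fat library and 26643020 to 30013106 per control library and did not differ beyond their spread (exact two-sided permutation test, p = 0.514, 70 splits, smallest possible p = 0.0286). The TMM factors did differ, at 1.02 to 1.07 in high-fat and 0.955 to 0.976 in control libraries (exact permutation p = 0.0286, the smallest possible). With library totals alone the median of all genes shifted to 0.10, 5 members were called, 3 higher and 2 lower, and Gstm4, Gstm6 and Gstm7 had log2 fold changes of 0.71, -0.49 and -0.37. In bulk tissue fewer cells of a type and less RNA per cell cannot be told apart. The summed level of 6 hepatocyte markers was 54592.5 to 58702 CPM in high-fat and 67761 to 101453 CPM in control libraries. Most of this sum was Alb, at 39225 to 40855 CPM in high-fat and 40443 to 77965 CPM in control libraries. Alb overlapped between the diets and was not called (edgeR adjusted p = 0.151). Of the 6 markers 3 were called lower, beside 5.86% of all genes tested. Markers of endothelial cells (326.6 to 375 CPM in high-fat, 321 to 377 CPM in control libraries), Kupffer cells (299 to 495 CPM in high-fat, 275 to 533 CPM in control libraries) and bile duct cells (44.1 to 89.6 CPM in high-fat, 35.3 to 67.1 CPM in control libraries) overlapped. None of these 15 genes was called by edgeR or limma-voom, 1 (Pecam1, an endothelial surface protein) was called higher by DESeq2, and 2 had an unadjusted edgeR p under 0.05. As edgeR called 9.61% of all genes tested, no call among so few genes is near that share. It does not show that these cell types were unchanged. The 6 stellate and fibroblast markers summed to 721 CPM in high-fat replicate 3, 337 to 407 CPM in the other high-fat libraries and 317 to 391 CPM in control libraries, with no gene called by edgeR, DESeq2 or limma-voom and 3 of the 6 at an unadjusted edgeR p under 0.05, and Col1a1 was at 54.9 CPM in high-fat replicate 3. A count of 0 called among 6 genes is likewise near the share over all genes. Of the 6 markers, 4 were highest in high-fat replicate 3, the collagen genes Col1a1, Col1a2 and Col3a1, and Pdgfrb. Lrat, at 56.2 CPM, and Dcn, at 187 CPM, lay there within the control ranges of 52.9 to 70.3 CPM and 164 to 188 CPM. High-fat replicate 3 is also the highest library for Gstm1 to Gstm4, and whether these cells had a part in those values was not tested. Adipoq, a fat cell transcript, reached 42 counts in control replicate 1 and 32 in control replicate 4, with at most 10 in any other library. Without these 2 controls Gstm4 (0.58, edgeR adjusted p = 0.0499) and Gstm6 (-0.46, edgeR adjusted p = 0.0467) were still called, and Gstm7 (-0.38, edgeR adjusted p = 0.0573) was not. Gstm1 (1.01, edgeR adjusted p = 0.116) and Gstm3 (2.09, edgeR adjusted p = 0.147) were not called either, in a fit of fewer libraries, and their log2 fold changes were as large as with all 8 libraries (0.92 and 2.01).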

How the data were processed

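For 8 livers the authors deposited raw gene counts, whole numbers in 1 table that also names and places each gene. Total RNA came from the mirVana kit and went into TruSeq Stranded Total RNA libraries, per the labels' protocols. Tools named with mm10 are bcl2fastq 2.20.0.422, Trimmomatic 0.32 and TopHat2 2.1.1, per the submitters' processing notes. Which tool counted reads, with which annotation and strand setting, is not given in the sources used here, so reads of overlapping or near-identical genes may be split between them. The design text calls the samples biological replicates, and no batch or pairing is named.

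The counts went into edgeR 4.0.16 (R 4.3.3), where filterByExpr kept 14088 genes with 99.9% of the counts, TMM gave the scaling, and the test over all 8 libraries used glmQLFit and glmQLFTest without covariates, with p-values adjusted by Benjamini-Hochberg over all genes tested and called at 0.05. Fold changes put the high-fat over the control diet, standard errors are the absolute log2 fold change over the square root of F, and CPM use the TMM-scaled library sizes. Simulated data with 200 changed genes were used to test this step. Library measures were compared by exact permutation. Exon lengths, transcripts and coding regions came from GENCODE M21 and promoter windows from RefSeq GRCm38.p6. All 7 members were named, the called genes of other lists up to 4 per list by smallest p, 12 fixed genes whatever their result, the 3 nearest patterns per member (log2 CPM, prior count 1) and genes near the members. The members and lists were chosen with earlier results of these data known.

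Alternatives were RLE, upper-quartile and no scaling factors, DESeq2 1.42.0, limma-voom (limma 3.58.1), no filter, a minimum of 1 CPM in 4 libraries, 1 surrogate variable (sva 3.50.0), leaving out the 10 most abundant genes, removal of length and GC trends (loess, span 0.3), stricter thresholds, and leaving out each library. Leaving out both control libraries with more Adipoq reads was chosen after seeing the data.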

Additional observations from a re-analysis of the deposited data

How the results depend on the processing

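No mu class member changed direction in any of the 21 alternatives. Gstm4 was called in all 21, Gstm6 in 19, Gstm7 in 18, Gstm3 in 12, Gstm1 in 11, and Gstm2 and Gstm5 in none. The 5 members called became 3 with limma-voom and 3 with 1 surrogate variable, where Gstm1 (adjusted p = 0.0505 and 0.0610) and Gstm3 (0.0680 and 0.0553) missed the threshold, 2 without both controls with more Adipoq reads (Gstm1 1.01, adjusted p = 0.116, and Gstm3 2.09, adjusted p = 0.147, with log2 fold changes as large as with all libraries), 1 at a threshold of 0.01, 3 at 0.05 and 1.5-fold, and 3 to 5 with 1 library left out. The 8 of 50 other glutathione genes became 14 with DESeq2, 3 without both controls, 1 at 0.01, and 3 to 14 with 1 library left out. Over all genes 1354 calls became 2053 with DESeq2, 743 without both controls, 369 at 0.01, 628 at 0.05 and 1.5-fold, and 725 to 1479 with 1 library left out, and library totals alone gave 1111 higher and 534 lower. Fewer samples or a stricter threshold enter some of these by construction, and otherwise the cause was not tested. Of shares of the family sum, 7 of 14 moved by over 1 SD with the longest transcript in place of merged exons. Log2 fold changes that changed sign, none called, were Keap1 with library totals (0.027), Gclc without both controls (-0.0014) and with 1 library left out (-0.033 to 0.21), and Gstt1 with upper-quartile factors (0.0093), library totals (0.081), 1 surrogate variable (0.015), length and GC trends removed (0.020) and 1 library left out (-0.053 to 0.047). No paired analysis was possible because the replicate numbers follow the sample order and the labels name no pairing. The lowest value of a member in any library was 163 counts, for Gstm5, and counting error, which is part of the spread between libraries, was not separated from it.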
